A study of Gallus gallus with 26 samples.

Results

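The metalloproteases and their inhibitors were described here as the genes whose symbol starts with *MMP*, *ADAM*, *ADAMTS*, *ADAMTSL* or *TIMP* followed by a number. The rule used the symbol and no measured value. It found 45 of the 15984 genes in the table, namely 11 *MMP*, 13 *ADAM*, 15 *ADAMTS*, 3 *ADAMTSL* and 3 *TIMP* genes. Of the 15984 genes, 3958 had no symbol and could not be found by this rule. Another 13 genes of these families, *ADAMTS4* among them, are named in RefSeq but not among the symbols here. The families may therefore be incomplete. RNA was sequenced in 6 libraries from the hindlimb digit 3 of White Leghorn chick embryos at Hamburger-Hamilton stage 32, after 7.5 days of incubation. The 3 interzone libraries hold the layer of condensed cells at the future interphalangeal joint, and the 3 phalange libraries hold the proximal part of the cartilage element beside it. No embryo received a treatment or carried an allele, and how many embryos, and of which sex, went into each library is not given in the sources used here. The p-values therefore measure the spread between these libraries, which are described as biological replicates.

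Matrix metalloproteases (MMPs) are zinc enzymes that cut collagens, proteoglycans and other matrix proteins outside the cell. ADAMs are membrane-anchored relatives that release the outer parts of receptors, ligands and adhesion proteins, and ADAMTS enzymes are secreted relatives that cleave large proteoglycans, trim procollagens or act on fibrillin microfibrils. ADAMTS-like proteins share the accessory domains of ADAMTS enzymes but lack the protease domain. Tissue inhibitors of metalloproteases (TIMPs) block the active site of these enzymes, and in mammals TIMP3 is bound to the matrix and inhibits several ADAM and ADAMTS enzymes as well as MMPs. In limb development, such enzymes are known for their part in cartilage remodelling, joint cavity formation and vascular invasion.

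The deposited values were normalized counts, that is, reads on a gene divided by a size factor for the library. Between 12431285 and 14347148 reads per library lay on genes, and 1 read was worth 0.894 to 1.05 normalized counts. Levels are compared below mainly between libraries for the same gene, because the values are not per length. Where shares, sums or ranks over several genes are given, they are of counts and not of transcripts. Interzone 1 had a read on 14418 genes, and the other libraries on 12615 to 13568. All 4 interzone markers (*GDF5*, *ERG*, *ENPP2*, *COL3A1*) were higher in every interzone library than in any phalange library, with summed normalized counts of 19535 to 99109 in interzone and 5280 to 8220 in phalange. Of 6 chondrocyte markers, 3 (*COL2A1*, *MATN1*, *HAPLN1*) were lower in every interzone library, while *SOX9*, *ACAN* and *COL9A1* overlapped between the tissues. The sums of this list were 28869, 53254 and 10414 in interzone 1, 2 and 3, against 47194, 77606 and 74186 in phalange 1, 2 and 3. Red blood cell markers varied more within a tissue than between tissues, with sums of 33472, 1483 and 51026 in interzone 1, 2 and 3, and 39279, 694 and 8190 in phalange 1, 2 and 3. In such bulk samples fewer cells of a type and less RNA per cell cannot be told apart.

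Of the 45 genes, 25 had reads in all 6 libraries and 20 had no read in at least 1 of them. A mean of at least 10 normalized counts was required for a test, and 37 genes passed this limit. Just inside this limit were *ADAMTS2* at a mean of 10.2 and *ADAMTS20* at 10.4, and just outside were *ADAM22* at 8.62 and *ADAMTS8* at 8.17. The other 6 genes below the limit were *ADAM11*, *ADAM20L*, *ADAMTS7*, *ADAMTS12*, *MMP1* and *MMP13*. *ADAMTS2* passed through a single library, interzone 3, which held all of its 65 reads. *ADAM20* passed through phalange 2, with 117 of its 126 reads, and *MMP27* through interzone 3, with 175 of 216. The interzone mean alone was below 10 for *ADAM9L*, *ADAM20*, *ADAM32L2*, *ADAMTS9*, *ADAMTS20* and *ADAMTSL5*. The phalange mean alone was below 10 for *MMP9*, *MMP27*, *ADAM23* and *ADAMTS2*. These genes passed only through their counts in the other tissue.

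**Figure D1:**
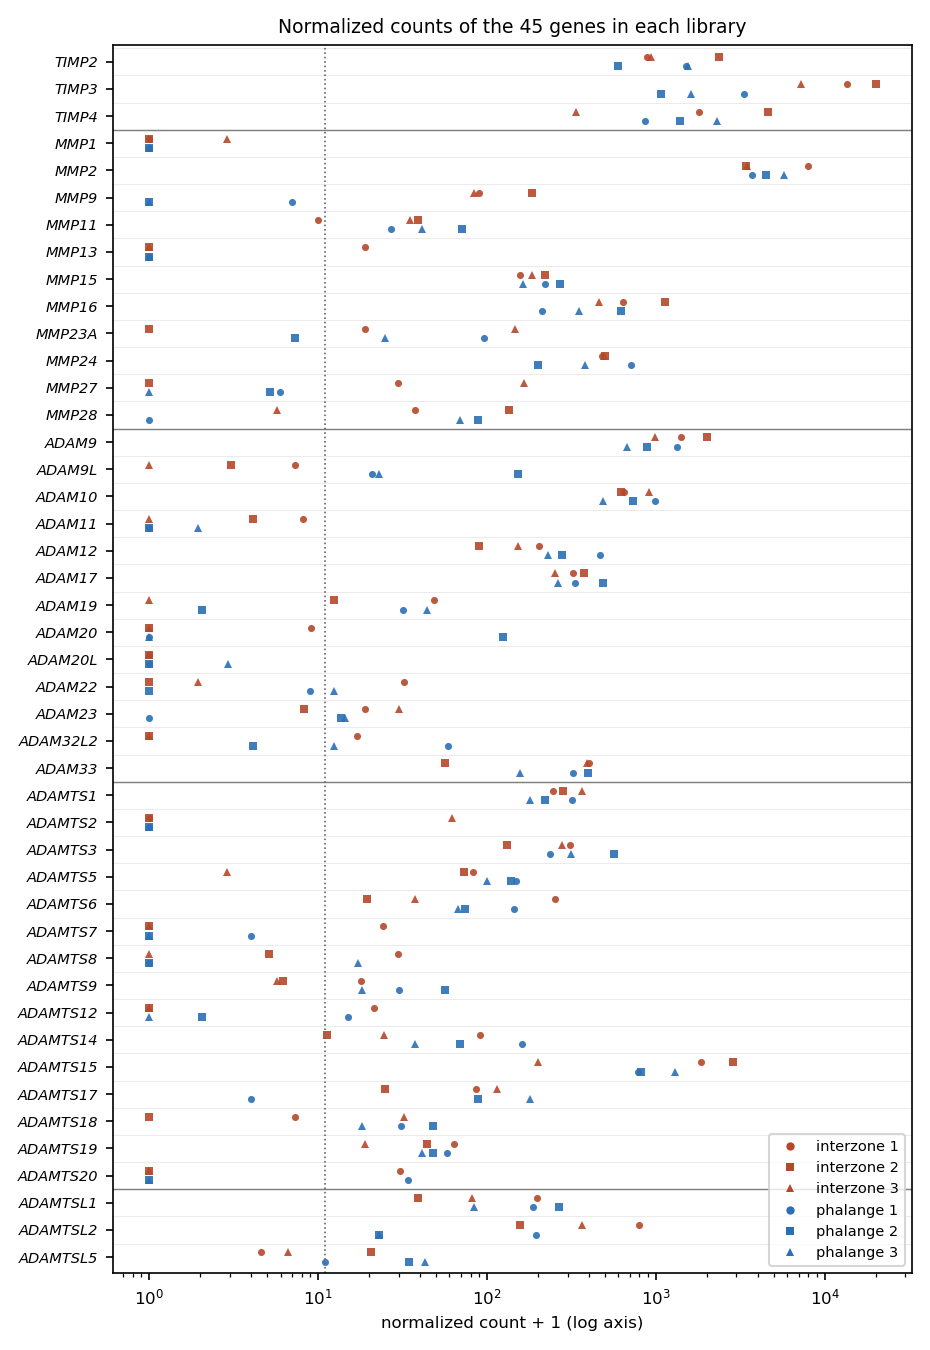
Normalized count plus 1 (log axis) of the 45 genes in the 3 interzone (red) and 3 phalange (blue) libraries, with a symbol for each replicate number and symbols on top of each other where values are equal. The dotted line marks a normalized count of 10, the limit that the mean over libraries had to reach for a test. *TIMP3* and *MMP9* are the genes for which every red symbol lies right of every blue one.

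With limma on log2(normalized count + 1), fitted on all 11928 genes past the limit, 0 of the 37 genes were called at an adjusted p under 0.05 and a log2 fold change (log2FC) beyond 0.5. The same rule called 0% of all tested genes as higher in interzone and 0.0252% as lower. The edgeR quasi-likelihood test also called 0 of the 37, beside 0.00838% of all tested genes in either direction. DESeq2 on all genes, the tool the study used, called *TIMP3* and *MMP9* as higher in interzone and 0 as lower, out of 39 genes of these families with an adjusted p. Its background was 0.906% higher and 0.477% lower, or 1.38% in either direction. On the genes past the limit DESeq2 called the same 2 genes, beside 0.914% of genes higher, 0.422% lower and 1.34% in either direction. At an unadjusted p under 0.05, 5 of the 37 genes were selected by limma. The 5 selected by limma were *TIMP3*, *MMP9* and *ADAMTSL2*, higher in interzone, and *ADAM9L* and *ADAM12*, lower in interzone. Of all tested genes limma selected 3.72% as higher and 2.74% as lower in this way, 6.46% in all.

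A count of genes with no overlap between the tissues gave a similar list. Every interzone library was above every phalange library for *TIMP3* and *MMP9*, and below for *ADAM9L*, *ADAM12*, *ADAMTS5* and *ADAMTS9*. Among all tested genes, 5.86% lay above and 5.11% below without overlap. The 2 of 37 above are close to this background, and the 4 of 37 below are a larger share than it. Whether they exceed it was not tested. *MMP9*, *ADAM9L* and *ADAMTS9* passed the limit on the mean only through the tissue where they were higher. Single genes could not reach significance in an exact permutation test, whose smallest p is 0.1 for 3 libraries against 3.

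*TIMP3*, which encodes the matrix-bound inhibitor, showed the lowest p of the 37. It had 13561, 20019 and 7277 normalized counts in interzone 1, 2 and 3, against 3332, 1077 and 1604 in phalange 1, 2 and 3. The lowest interzone library was thus above the highest phalange library by more than the range of the phalange. The mean was 13619 ± 6371 in interzone and 2004 ± 1180 in phalange (SD, n = 3 each), a ratio of 6.79. The log2FC was 2.81 (SE 0.46, 95% interval 1.76 to 3.85). The limma adjusted p was 0.119, that of edgeR 0.262 and that of DESeq2 2.84e-06. DESeq2 called *TIMP3* with each library left out in turn, with log2FCs of 2.38 to 3.35, in fits added after the data were seen. Limma did not call *TIMP3* with any library left out. Within interzone *TIMP3* was highest in library 2 and lowest in library 3. This order was shared by the interzone markers *GDF5*, with 18746, 43350 and 12167 normalized counts in interzone 1, 2 and 3, and *ENPP2*, with 17955, 45670 and 2959. It was not particular to them, since the chondrocyte markers *SOX9*, *COL2A1*, *COL9A1*, *MATN1*, *ACAN* and *HAPLN1* had the same order. *MATN1*, for example, had 1045, 1780 and 623 in interzone 1, 2 and 3. The summed tendon and fibrous markers, all 6 of which were in the table, were 69083 to 93785 normalized counts in interzone and 61911 to 65652 in phalange. Nearly all of this sum was *COL1A2* and *DCN*, each of which overlapped between the tissues. The tendon factor *MKX* was lower in every interzone library, with 101, 85.7 and 104.5 in interzone 1, 2 and 3, against 188, 315 and 197 in phalange 1, 2 and 3 (log2FC -1.22, SE 0.44). The tendon gene *TNMD* had 265, 118 and 104.5 in interzone 1, 2 and 3, against 202, 58.7 and 206 in phalange 1, 2 and 3. *SCX*, another tendon factor, had 117, 70.2 and 187 in interzone 1, 2 and 3, against 131, 25.2 and 6.70 in phalange 1, 2 and 3 (log2FC 1.97, SE 1.04). Of the 5 tested genes of this list, 4 had a log2FC above 0, and only *MKX* was below 0. The part of such cells in the *TIMP3* difference was not tested.

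The other inhibitor genes did not separate the tissues. *TIMP2*, whose product in mammals also takes part in activating MMP2, had 880, 2367 and 929 normalized counts in interzone 1, 2 and 3, against 1505, 600 and 1551 in phalange 1, 2 and 3. *TIMP4* had 1810, 4594 and 335 in interzone 1, 2 and 3, against 858, 1395 and 2285 in phalange 1, 2 and 3. Both the highest and the lowest library of *TIMP4* were interzone libraries. The log2FC was 0.16 (SE 0.48) for *TIMP2* and 0.0099 (SE 0.82) for *TIMP4*, with limma adjusted p of 0.998 and 1.00. Their 95% intervals, -0.94 to 1.25 and -1.86 to 1.88, leave room for sizeable differences in either direction. With interzone 3 left out the log2FC of *TIMP4* was 1.04, and with interzone 2 left out it was -0.84.

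Summed over the 3 *TIMP* genes, there were 16252, 26980 and 8541 normalized counts in interzone 1, 2 and 3, and 5695, 3072 and 5439 in phalange 1, 2 and 3. *TIMP3* made up 83.4%, 74.2% and 85.2% of these sums in interzone 1, 2 and 3, against 58.5%, 35.1% and 29.5% in phalange 1, 2 and 3. The summed *MMP* counts overlapped, with 9434, 5616 and 5058 in interzone 1, 2 and 3, and 4978, 5719 and 6749 in phalange 1, 2 and 3. The ratio of *TIMP* to *MMP* counts was accordingly 1.72, 4.80 and 1.69 in interzone 1, 2 and 3, and 1.14, 0.537 and 0.806 in phalange 1, 2 and 3. All interzone ratios were above all phalange ratios, and interzone 2, the library richest in *TIMP3*, was well above the rest. The mean log2 of this ratio was higher in interzone than in phalange by 1.61 with all libraries and by 1.11 without interzone 2. These are ratios of counts over genes of unequal length and not of molecules or of protein. They cover only the genes that the symbol rule found.

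**Figure D2:**
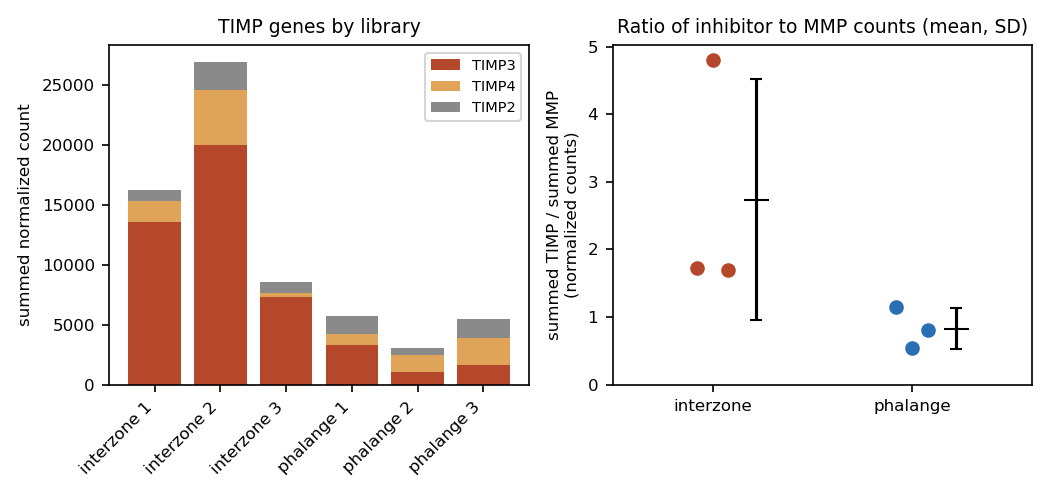
Left, summed normalized counts of *TIMP3*, *TIMP4* and *TIMP2* in each library, from 3072 in phalange 2 to 26980 in interzone 2. Right, the ratio of summed *TIMP* to summed *MMP* normalized counts per library (points) with mean and SD for 3 interzone and 3 phalange libraries, 2.74 ± 1.79 in interzone and 0.829 ± 0.304 in phalange.

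Of the gelatinases, *MMP9* was called by DESeq2 and *MMP2* was not. *MMP9*, an enzyme that degrades denatured collagen and that in mammals is produced by osteoclasts, macrophages and neutrophils, had 88.5, 184.8 and 82.8 normalized counts in interzone 1, 2 and 3. In phalange 1 it had 5.99, and in phalange 2 and 3 it had no read, which allows up to 3 reads in each of them. The sum was 366 reads in interzone and 6 in phalange, a ratio of 58.1 with a counting interval of 26.4 to 159 at 95%, which covers counting error only. The log2FC was 5.87 (SE 1.20, 95% interval 3.14 to 8.599) and depends on the pseudocount, falling to 3.37 with a pseudocount of 10. The adjusted p was 0.249 with limma, 0.555 with edgeR and 0.000744 with DESeq2. Without interzone 2, the library with the highest count, the DESeq2 adjusted p was 0.110, and with any other library left out it was at most 0.0250. These left-out fits were also added after the data were seen.

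Markers of the cells that produce *MMP9* in mammals were read beside it. Of 12 macrophage and osteoclast markers 9 were in the table, and their summed normalized counts were 1298 to 2227 in interzone and 993 to 2587 in phalange. *CSF1R*, the receptor that defines macrophages and osteoclasts, had 533, 549 and 0 in interzone 1, 2 and 3, against 520, 537 and 171 in phalange 1, 2 and 3. Other genes of the list had counts in interzone 3, with 609 of *CD74*, 288 of *CTSS* and 44.2 of *C1QB*, while *C1QA* was at 0 there. Of the 8 tested genes of the list, 2 had a log2FC above 0 and 6 below. *CTSK*, the main collagen-degrading protease of osteoclasts, had 395, 265 and 342 in interzone 1, 2 and 3, against 397, 313 and 344 in phalange 1, 2 and 3. The scavenger receptor gene *MARCO* had 37.6 in interzone 3 and was at 0 in the other libraries. Of 8 heterophil and other leukocyte markers 5 were in the table, and their sums were 194 to 472 in interzone and 565 to 806 in phalange. A single gene, *LCP1*, set these sums apart, with 236, 44.4 and 64.9 in interzone 1, 2 and 3, against 561, 566 and 214 in phalange 1, 2 and 3. Without *LCP1*, a choice made after the data were seen, the sums overlapped, with 236, 200.3 and 129 in interzone 1, 2 and 3, against 245, 75.5 and 350.4 in phalange 1, 2 and 3. All 4 tested genes of the list overlapped between the tissues. The pan-leukocyte gene *PTPRC* had 27.7, 61.9 and 0.941 in interzone 1, 2 and 3, against 2.99, 8.39 and 8.62 in phalange 1, 2 and 3. It was highest in interzone 2, as was *MMP9*, but the other genes of the list were not. *SPI1* had 112, 53.7 and 67.8 in interzone 1, 2 and 3, against 232, 31.5 and 131 in phalange 1, 2 and 3. *CXCR4* had 93.8, 84.7 and 60.2 in interzone 1, 2 and 3, against 8.98, 27.3 and 208 in phalange 1, 2 and 3. Whether leukocytes had a part in the *MMP9* counts was not tested.

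**Figure D3:**
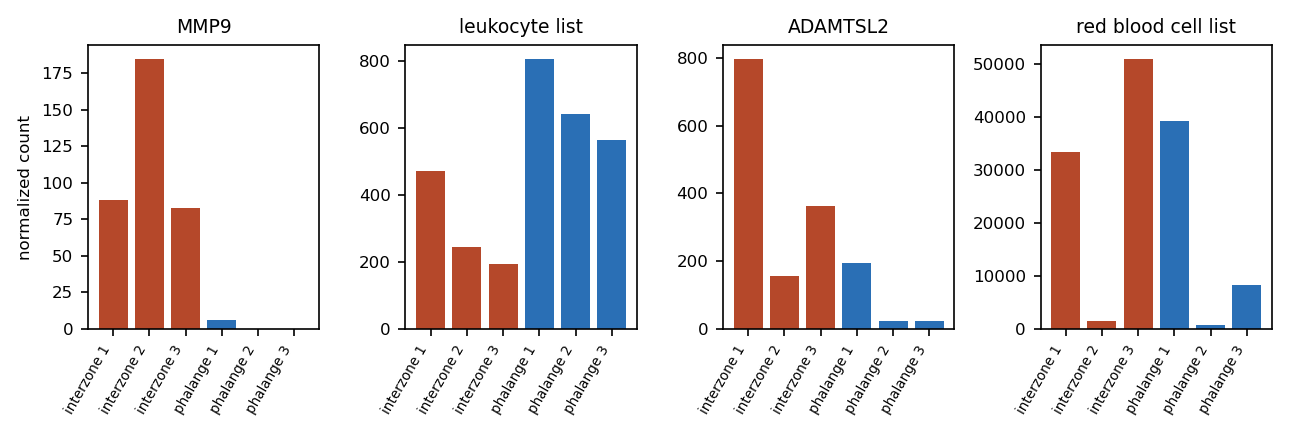
Normalized counts per library (bars, each panel on its own linear axis from 0) of *MMP9*, of the summed heterophil and leukocyte list, of *ADAMTSL2* and of the summed red blood cell list, with interzone in red and phalange in blue. The leukocyte sums, 194 to 472 in interzone and 565 to 806 in phalange, separate only with *LCP1* included, and the red blood cell sums are lowest in interzone 2 and phalange 2.

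*MMP2*, the other gelatinase, had the highest mean count among the *MMP* genes and made up 60.8% to 84.3% of summed *MMP* counts in interzone and 74.4% to 84.8% in phalange. It had 7956, 3412 and 3485 normalized counts in interzone 1, 2 and 3, against 3704, 4458 and 5724 in phalange 1, 2 and 3. Interzone 1 was the highest of all libraries and the other interzone libraries were the lowest. The log2FC was 0.00043 (SE 0.34), with a 95% interval of -0.77 to 0.77.

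Among the membrane-type MMPs, which act at the cell surface, *MMP16* came closest to a separation. It had 642, 1127 and 460 normalized counts in interzone 1, 2 and 3, against 211, 623 and 350 in phalange 1, 2 and 3. Phalange 2 lay above interzone 3, so the tissues overlapped, and the log2FC of 0.95 (SE 0.47) had a limma adjusted p of 0.841. *MMP24* was nearly constant in interzone, with 482, 499 and 495 in interzone 1, 2 and 3, and ranged widely in phalange, with 713, 200.3 and 380 in phalange 1, 2 and 3. *MMP15* overlapped as well, with 156 to 221 in interzone and 163 to 270 in phalange. The log2FCs of *MMP24* and *MMP15* were 0.38 (SE 0.45) and -0.20 (SE 0.40).

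The collagenases and their neighbours on chromosome 1 were low. *MMP13*, which cleaves fibrillar collagen and is known from hypertrophic cartilage and bone, had 20 reads in interzone 1 and none in the other libraries, and *MMP1* had 2 reads in interzone 3 and none elsewhere. In these libraries 0 reads allow up to 3, or 2.68 to 3.15 normalized counts. *MMP27*, which lies directly beside *MMP1*, had 28.6, 0 and 165 normalized counts in interzone 1, 2 and 3, against 4.99, 4.20 and 0 in phalange 1, 2 and 3. A library of each tissue was at 0 and the limma adjusted p was 0.934, with a log2FC of 2.43 (SE 2.01). Without interzone 3 its log2FC was 0.79. *MMP11*, *MMP23A* and *MMP28* had means of 36.2, 48.1 and 55.1 normalized counts over the 6 libraries, with the tissues overlapping and limma adjusted p of 0.962 to 0.993. Over the 9 tested *MMP* genes, 6 had a log2FC above 0 and the median was 0.38, beside 49.9% above 0 and a median of -0.00076 over all tested genes. Of those above 0, *MMP9* and *MMP27* passed the limit only through interzone counts, and *MMP2* was at 0.00043. The count is therefore a description only.

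Among the ADAM genes with an active protease, the broadly acting sheddases overlapped between the tissues. *ADAM10*, the sheddase that acts on Notch receptors, had 645, 619 and 915 normalized counts in interzone 1, 2 and 3, against 989, 727 and 484 in phalange 1, 2 and 3. *ADAM17*, the sheddase for tumor necrosis factor and growth factor precursors, had 321, 376 and 251 in interzone 1, 2 and 3, against 330.4, 488 and 263 in phalange 1, 2 and 3. Their log2FCs were 0.023 (95% interval -0.72 to 0.77) and -0.16 (-0.98 to 0.66), so log2FCs beyond 1 in either direction lie outside both intervals. *ADAM9*, another sheddase, had 1404, 2020 and 990.0 in interzone 1, 2 and 3, against 1328, 890.4 and 670.1 in phalange 1, 2 and 3. The log2FC of *ADAM9* was 0.61 (SE 0.34, limma adjusted p 0.886), and the tissues overlapped because phalange 1 lay above interzone 3.

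*ADAM12*, whose product cleaves insulin-like growth factor binding proteins in mammals, was lower in every interzone library. It had 203, 88.8 and 152 normalized counts in interzone 1, 2 and 3, against 464, 277 and 229 in phalange 1, 2 and 3. The mean was 148 ± 57.1 in interzone and 323 ± 124 in phalange (SD, n = 3 each). The gap between the tissues, from 203 to 229, was small beside the spread within the phalange. The log2FC was -1.14 (SE 0.47), with an unadjusted p of 0.0400 and an adjusted p of 0.742 with limma, 0.837 with edgeR and 0.439 with DESeq2.

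*ADAM9L*, a gene that the annotation names as similar to *ADAM9*, had 6.26, 2.06 and 0 normalized counts in interzone 1, 2 and 3, against 19.97, 151 and 22.02 in phalange 1, 2 and 3. This was 9 reads in interzone and 187 in phalange, of which phalange 2 alone gave 144. The log2FC was -3.90 (SE 1.38), with an adjusted p of 0.642 with limma and 0.0921 with DESeq2. *ADAM32L2*, which lies close to *ADAM9* on chromosome 22, had 16.1, 0 and 0 in interzone 1, 2 and 3, against 57.9, 3.15 and 11.5 in phalange 1, 2 and 3 (log2FC -2.49, SE 1.79, limma adjusted p 0.926). Counts of such related genes are uncertain, because the treatment of reads that match several genes is not given in the sources used here. The remaining tested ADAM genes, *ADAM19*, *ADAM20*, *ADAM23* and *ADAM33*, all overlapped between the tissues, with limma adjusted p of 0.958 to 0.990. Over the 10 tested *ADAM* genes 3 had a log2FC above 0, and the median was -0.57. This median was -0.16 with a mean of at least 50, where fewer genes were tested, and -0.38 with no filter. *ADAM9L*, *ADAM20* and *ADAM32L2*, with log2FCs below 0, passed the limit only through phalange counts. *ADAM23*, above 0, passed only through interzone counts.

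Among the ADAMTS enzymes that cleave aggrecan and versican, *ADAMTS5* and *ADAMTS9* were lower in every interzone library. *ADAMTS5*, a main aggrecan-degrading enzyme of mammalian cartilage, had 82.2, 72.3 and 1.88 normalized counts in interzone 1, 2 and 3, against 148, 138 and 99.6 in phalange 1, 2 and 3. All interzone libraries were lower, and interzone 3 was far below the others with 2 reads. The log2FC was -2.30 (SE 1.24, limma adjusted p 0.868), and it was -0.71 without interzone 3. *ADAMTS1*, the gene next to *ADAMTS5* on chromosome 1, had 246, 283 and 362 in interzone 1, 2 and 3, against 318, 218 and 178 in phalange 1, 2 and 3, and overlapped between the tissues (log2FC 0.34, SE 0.38, limma adjusted p 0.962).

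*ADAMTS9*, another versican-cleaving enzyme, had 16.98, 5.16 and 4.71 normalized counts in interzone 1, 2 and 3, against 29.0, 55.6 and 17.2 in phalange 1, 2 and 3. These are 29 reads in interzone and 100 in phalange. The gap between interzone 1 and phalange 3 was less than 1 read, and with libraries scaled by their total reads it was no longer a gap. The log2FC was -1.87 (SE 1.06, limma adjusted p 0.887).

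*ADAMTS15* had the highest mean count of the *ADAMTS* genes, with 1859, 2879 and 199 normalized counts in interzone 1, 2 and 3, against 780, 821 and 1297 in phalange 1, 2 and 3. As with *TIMP4*, the highest and the lowest library were both interzone, and interzone 3 was also the library with the lowest chondrocyte sum. Whether cell composition had a part in this was not tested. The log2FC was 0.12 (SE 0.85, limma adjusted p 1.00). Without interzone 3, its lowest library, it was 1.30, and DESeq2 then called the gene with an adjusted p of 0.0227. That DESeq2 fit was added after the data were seen. *ADAMTS8*, its neighbour on chromosome 24, had 53 reads in all and was not tested.

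The procollagen N-proteinases, which trim the amino ends of fibrillar procollagens, were not called either. *ADAMTS3* had 307, 131 and 279 normalized counts in interzone 1, 2 and 3, against 236, 565 and 313 in phalange 1, 2 and 3 (log2FC -0.63, SE 0.48, limma adjusted p 0.929). *ADAMTS14* had 89.4, 10.3 and 23.5 in interzone 1, 2 and 3, against 161, 68.2 and 36.4 in phalange 1, 2 and 3 (log2FC -1.35, SE 0.97, limma adjusted p 0.926). In both genes the lowest library was an interzone library and the highest a phalange library, and the groups overlapped. *ADAMTS2*, of the same class, went the other way, with 61.2 in interzone 3 and no read in the other libraries (log2FC 1.99, SE 2.34). Outside this class, *ADAMTS18* had 6.26, 0 and 31.1 in interzone 1, 2 and 3, against 29.9, 47.2 and 17.2 in phalange 1, 2 and 3, with interzone 3 inside the phalange range (log2FC -2.29, SE 1.44, limma adjusted p 0.904). *ADAMTS6*, *ADAMTS17* and *ADAMTS19* overlapped, with log2FCs of -0.65, 0.64 and -0.37. The mean counts of *ADAMTS6* and *ADAMTS17* went the other way. They were 102 and 73.9 in interzone, against 94.4 and 90.4 in phalange. Over the 12 tested *ADAMTS* genes 4 had a log2FC above 0, and the median was -0.50. *ADAMTS9* and *ADAMTS20*, below 0, passed the limit only through phalange counts, and *ADAMTS2*, above 0, only through interzone counts.

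*ADAMTSL2*, which encodes a protein that binds fibrillin microfibrils, had 798, 156 and 362 normalized counts in interzone 1, 2 and 3, against 195, 22.02 and 22.02 in phalange 1, 2 and 3. Interzone 2 lay below phalange 1, so the tissues overlapped. The log2FC was 2.93 (SE 0.94, 95% interval 0.79 to 5.07), with an unadjusted p of 0.0131 and an adjusted p of 0.595 with limma, 0.822 with edgeR and 0.235 with DESeq2. Without phalange 1, the only phalange library above an interzone library, DESeq2 called it, with a log2FC of 4.32 and an adjusted p of 3.75e-06. That fit was added after the data were seen.

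The libraries with more *ADAMTSL2* in each tissue were among those with more red blood cell RNA. In the 3 libraries with the highest red blood cell sums, *ADAMTSL2* had 798 and 362 normalized counts in interzone 1 and 3, against 195 in phalange 1. In the 3 others it had 156 in interzone 2, against 22.02 in both phalange 2 and 3. These sets of libraries were formed after the values were seen and hold 1 or 2 libraries of each tissue, and the part of blood content in the *ADAMTSL2* difference was not settled by them. With the log2 red blood cell sum as a covariate, an alternative added after the data were seen, the limma log2FC was 2.44 with an adjusted p of 0.496.

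The other ADAMTS-like genes had log2FCs below 0 and overlapped between the tissues. *ADAMTSL1* had 196, 38.2 and 80.9 normalized counts in interzone 1, 2 and 3, against 187, 267 and 82.3 in phalange 1, 2 and 3 (log2FC -0.91, SE 0.72, limma adjusted p 0.934). *ADAMTSL5*, a further fibrillin-binding member in mammals, had 3.57, 19.6 and 5.65 in interzone 1, 2 and 3, against 9.98, 33.6 and 42.1 in phalange 1, 2 and 3 (log2FC -1.57, SE 1.16, limma adjusted p 0.926). Both had their lowest library in interzone and their highest in phalange.

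**Figure D4:**
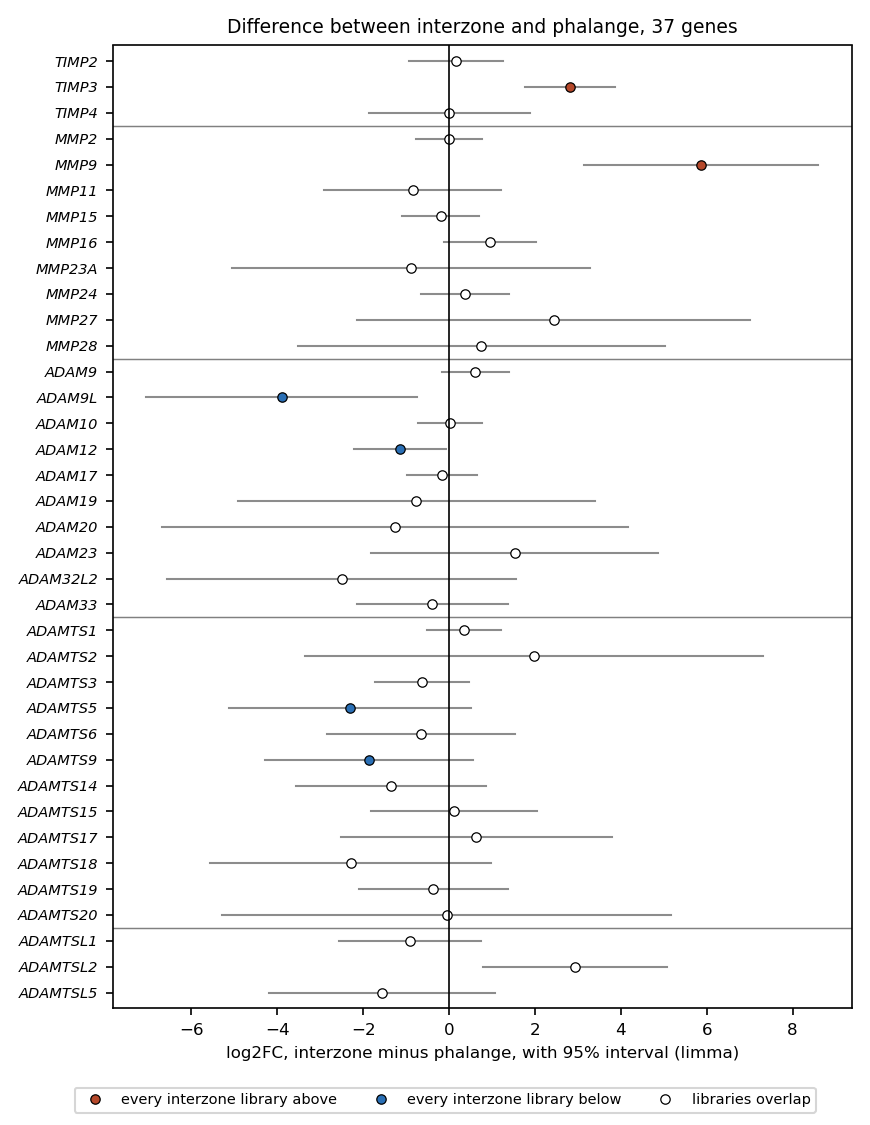
Limma log2FC (interzone minus phalange, log2(normalized count + 1) scale) with 95% interval for the 37 genes with a mean of at least 10 normalized counts, in the order of the families. Filled circles are genes without overlap between the tissues, and the intervals of *TIMP3*, *MMP9* and *ADAMTSL2* lie above 0, and those of *ADAM9L* and *ADAM12* below 0, before any adjustment.

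Values of these genes spread widely between libraries of the same tissue. The median residual SD of the 37 genes was 1.25 on the log2 scale, against 0.593 over all tested genes, and 30 of the 37 lay above that median. The part of count level in this was not tested. Over the 37 genes, 17 had a log2FC above 0 and 20 below, with a median of -0.16. On both sides of 0 were genes that had passed the limit only through 1 tissue. With a mean of at least 50, where fewer genes were tested, the median was 0.023.

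Genes that act with these enzymes were described from a list of activators, receptors and other inhibitors, of which 29 of 40 were in the table and 26 were tested. Limma and DESeq2 called 0 of them. At an unadjusted p under 0.05 limma selected 4 as higher in interzone and 2 as lower, beside 3.72% and 2.74% of all tested genes. *RECK*, which encodes a membrane-anchored inhibitor of MMPs, had 614, 395 and 492 normalized counts in interzone 1, 2 and 3, against 177, 415 and 224 in phalange 1, 2 and 3 (log2FC 0.95, SE 0.40, limma adjusted p 0.742). *TLL1*, a procollagen C-proteinase gene, had 625, 1284 and 275 in interzone 1, 2 and 3, against 213, 87.0 and 228 in phalange 1, 2 and 3, without overlap (log2FC 1.90, SE 0.61, limma adjusted p 0.595). The others with a higher level were *HTRA1* and *RHBDF1*. *LRP1*, the receptor that clears MMPs, ADAMTS enzymes and TIMP3 from the matrix in mammals, had 281, 167 and 224 in interzone 1, 2 and 3, against 425, 619 and 282 in phalange 1, 2 and 3 (log2FC -0.94, SE 0.40, limma adjusted p 0.755). Every interzone library of *LRP1* was lower, but barely, with 280.6 in interzone 1 against 282.4 in phalange 3. *TSPAN14*, a tetraspanin that binds ADAM10, had a log2FC of -1.24 (SE 0.47, limma adjusted p 0.692).

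Of a list of 32 substrates, 30 were in the table and 28 were tested. Limma called 0 of them, with 5 higher and 5 lower at an unadjusted p under 0.05 (6.46% of all tested genes in either direction), and DESeq2 called 3 as higher in interzone (*COL3A1*, *LTBP1* and *NOTCH2*) and 4 as lower (*COL2A1*, *COMP*, *HAPLN1* and *SDC2*), beside 1.38% of all genes in either direction. Most of these are genes that the study itself names for a tissue. It uses *COL3A1* and *COL2A1* as markers, and names *LTBP1* for interzone and *COMP* and *HAPLN1* for phalange. *COL3A1* is also in the interzone list used above, and *COL2A1* and *HAPLN1* are in the chondrocyte list. *ACAN*, the aggrecan gene and substrate of ADAMTS5, had 1726, 4707 and 840.4 normalized counts in interzone 1, 2 and 3, against 3886, 8325 and 6657 in phalange 1, 2 and 3 (log2FC -1.66, SE 0.56, limma adjusted p 0.611). *VCAN*, the versican gene, had 3368, 5246 and 2799 in interzone 1, 2 and 3, against 3002, 1745 and 1903 in phalange 1, 2 and 3 (log2FC 0.77, SE 0.30, limma adjusted p 0.704). In both genes 1 library crossed into the range of the other tissue.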

How the data were processed

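The genes, gene lists and comparisons described here were chosen with earlier results of these data known. Poly(A)-RNA was amplified with Smart-seq2, which keeps neither molecular identifiers nor strand, so PCR copies are counted as reads and overlapping antisense transcripts cannot be told apart. Per the study's methods, single reads of 50 bases were trimmed with Trimmomatic, mapped with STAR to the *Gallus gallus* 6.0 genome and counted with featureCounts on Ensembl release 104. The authors deposited read counts divided by DESeq2 size factors, a normalized signal per gene and library. All values (100%) could be turned back into whole reads, within 0.01 reads. Tissue and replicate came from the sample labels, and 0 columns of per-sample values were without a sample.

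Log2(normalized count + 1) was fitted with limma 3.58.1 (eBayes with trend) in R 4.3.3 on the 11928 genes with a mean of at least 10, with Benjamini-Hochberg adjustment over all of them and a call at an adjusted p under 0.05 and a log2FC beyond 0.5. This scale understates changes of low genes. These reads went into edgeR 4.0.16 (quasi-likelihood test, TMM) and DESeq2 1.42.0, and adjusted p that DESeq2 gave as NA stayed NA. Of the fits, only limma, edgeR and DESeq2 without the alternatives below were run on simulated data. No limit was set there on the share of false calls of DESeq2. Alternatives covered pseudocount, filter, scaling, test, replicate block and each library left out. Values were summarized in Python 3.11.15 with pandas 2.3.3, numpy 2.4.6 and scipy 1.17.1, and plotted with matplotlib 3.10.9.

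Named genes were the 16 with the lowest limma p, the 3 of highest mean count in each of the 5 families, any called with all 6 libraries in place, and enzymes and inhibitors that matrix biology names most often. Other genes of the families that are named were picked after their values were seen. Of the 45 symbols, 44 matched RefSeq names of assembly GRCg7b, which gave chromosomes and neighbours only. *MMP14*, *TIMP1* and *ADAMTS4*, sequences of the genes or proteins, and the 10 histone peak lists were not analysed here.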

Additional observations from a re-analysis of the deposited data

How the results depend on the processing

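Each tissue had 3 libraries, and 20 of 45 genes were at 0 in some library. With all 6 libraries, DESeq2 on filtered genes and on all genes each called 2 genes higher in interzone, against 0 under every other planned setting. Left-out fits of DESeq2 were added after the data were seen. They called 2, 1 and 3 higher without interzone 1, 2 and 3, and 3, 2 and 2 without phalange 1, 2 and 3. The share of all genes called in each of these fits was not worked out, so these counts cannot be set against a background. The extra calls were *ADAMTS15* without interzone 3 and *ADAMTSL2* without phalange 1, and without interzone 2 *MMP9* was lost. Without interzone 1 DESeq2 called 1 lower, *ADAM20*, from 117 reads in phalange 2 alone.

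Genes without overlap numbered 2 to 6 above and 4 to 9 below with a library left out, with 9 below without interzone 1 (9.9% of all tested genes), 6 above (11.3%) and 7 below (11%) without phalange 1, and 5 above without interzone 2 (10.4%) or 3 (12.3%). With a mean of at least 50 there were 2 below, since fewer genes were tested. The *MMP* median log2FC was 0.13 with a pseudocount of 10, 0.51 with no filter and 0.56 with a mean of at least 50, where the *ADAMTSL* median, then of fewer genes, was 1.01. With a library left out the median was -0.015 to 0.39 for *MMP*, -1.13 to -0.032 for *ADAM*, -1.28 to -0.18 for *ADAMTS* and -0.31 to 1.04 for *TIMP*.

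Of the named genes, those that changed sign had a main limma log2FC of -0.16 to 0.38. Genes further from 0 that were not named changed sign as well. The limma log2FCs of *ADAMTS6*, *ADAMTS17* and *MMP23A* were -0.65, 0.64 and -0.88, and those of DESeq2 on all genes were 0.11, -0.29 and 0.39. *ADAM10* was at -0.00082 with total scaling, -0.022 with edgeR, -0.016 and -0.014 with DESeq2 on filtered and all genes, and -0.051 with the red blood cell covariate. *MMP2* was at -0.0086 with TMM, -0.024 with total scaling, -0.0011 with voom and -0.038 with that covariate, and *TIMP4* at -0.014 with total scaling and -0.028 with voom. With a library left out the log2FC was -0.25 to 0.27 for *ADAM10*, -0.36 to 0.080 for *ADAM17*, -0.63 to 1.30 for *ADAMTS15*, -0.40 to 0.21 for *MMP2*, -0.082 to 0.83 for *MMP24*, -0.31 to 0.41 for *TIMP2* and -0.84 to 1.04 for *TIMP4*. The cause was not tested.

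Same-numbered libraries had correlations of their deviations from the tissue means of 0.19, 0.080 and -0.017, and differently numbered ones of -0.14 to 0.073. These values do not settle whether the numbers mark pairs, and the main fit treated the libraries as unpaired. For its RT-qPCR samples the study joins those from the same embryo by lines, and for the RNA libraries it states no pairing. With the replicate block limma called 0 of the 37 genes, as without it. The unadjusted limma p with the block fell from 0.013 to 0.0016 for *ADAMTSL2* and from 0.077 to 0.026 for *MMP16*. It rose from 0.00021 to 0.00033 for *TIMP3* and from 0.00096 to 0.0026 for *MMP9*.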

Other observations

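Low genes of these families were spread unevenly over the libraries. Of the 45 genes, 3 had no read in interzone 1, against 13 and 11 in interzone 2 and 3 and 9, 10 and 9 in phalange 1, 2 and 3. Interzone 1 was also the library with a read on the most genes, 14418. The reads of *ADAMTS7*, *ADAMTS8*, *ADAMTS12*, *ADAM11* and *ADAM22* in interzone 1 were 26, 32, 23, 8 and 35, out of 29, 53, 38, 12 and 56 in all libraries. *ADAMTS20* had 33 reads in interzone 1 and 33 in phalange 1, and none in the other libraries.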
